A study of Mus musculus with 3 samples.

Results

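The inflammasome genes described here are 10 mouse genes, chosen by name out of 33506 genes with a level in the RNAseq table. They are the sensor genes Nlrp3, Nlrc4, Aim2, Naip2 and Naip5, the adaptor gene Pycard, the protease genes Casp1 and Casp4, the pore gene Gsdmd and the cytokine gene Il18. A level is in FPKM, the number of sequenced fragments of a transcript divided by its length and by the size of the library, so that levels of different genes can be compared per length. For each transcript identifier of a gene the first row with a value in all 3 columns was taken, and the identifiers of a gene were summed. By this rule 9 of the 10 genes had a level, and Il18 had none.

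The RNA came from BALB/C mice bearing tumors of Renca, a mouse renal tumor cell line, grown inside the kidney. The labels name Renca alone, while the study describes the cells injected as Renca Ch+ L+, a Renca line that carries Cherry and luciferase. Macrophages were sorted from 30 pooled tumors by F4/80 and CD11b, with type-1 macrophages (M1) gated as intermediate for F4/80 and high for CD11b and type-2 macrophages (M2) as high for F4/80 and intermediate for CD11b. CD4 T cells were sorted with antibodies to TCRbeta and CD4, and the labels name both 4 spleens and the tumors as their organ. The labels give both day 14 and day 16 after tumor injection. All 3 groups thus came from tumor-bearing mice, no healthy mice were analysed here, and each group was 1 library of pooled mice. No difference below has a replicate check, and no test between groups was possible.

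Inflammasomes are protein complexes that myeloid cells assemble in the cytosol when they meet microbial products or damage. A sensor recruits the adaptor ASC, which gathers caspase-1. The protease then matures the interleukin-1 family cytokines and cuts gasdermin D, whose fragment opens pores in the plasma membrane and ends in lytic cell death. In tumors the pathway is best known from macrophages and other myeloid cells, which carry its sensors and its cytokines.

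Markers of cell types went against 2 of the 3 labels, and the libraries are therefore called by their labels alone. Each of 13 T cell genes peaked in the library labelled M2, and together they summed to 6.34 FPKM under the label M1, 2130.0 under M2 and 17.7 under CD4. Cd3e, which encodes a chain of the T cell receptor complex, was at 126 FPKM in the library labelled M2 and at 0.141 FPKM in that labelled CD4. Of 10 macrophage genes 9 were highest in the library labelled CD4, and the list summed to 2340.4 FPKM under the label M1, 309.7 under M2 and 6559 under CD4. Csf1r, the receptor that macrophages need for survival, was at 279, 15.3 and 519 FPKM in the libraries labelled M1, M2 and CD4. The 4 monocyte genes summed to 729, 77.7 and 194 FPKM in the same order, the 8 neutrophil genes to 72.3, 245 and 36.3, the 5 dendritic cell genes to 2.61, 17.7 and 2.68, the 4 B cell genes to 0.405, 47.0 and 0.492, and the 10 kidney epithelium genes to 122, 199.5 and 98.3. Among the genes listed at 0 were Cd247, Camp and Umod under the label M1, Ly6c2 and Cd79b under M2, and Cd247 and Camp under CD4. These lists move with every difference reported here that involves the library labelled M2, and their part in the differences was not tested. In such bulk RNA, fewer cells of a type and less RNA per cell cannot be told apart.

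The 9 inflammasome genes with a level were all lower in the library labelled M2 than in each of the other libraries in the rows compared, while Aim2, Casp4 and Gsdmd were highest there when all rows of a gene were summed. Against the library labelled M1, 6 of the 9 were at least 2-fold lower, namely Nlrp3, Nlrc4, Aim2, Naip2, Naip5 and Casp1, while 14.5% of 12415 genes were. None of the 9 was at least 2-fold higher, against 16.9% of all genes. Against the library labelled CD4, 4 of the 9 were at least 2-fold lower (Nlrp3, Nlrc4, Aim2 and Naip2), while 15.3% of 12415 genes were, and 0 were higher, against 17.3%. Between the libraries labelled CD4 and M1, Naip5 was the 1 member at least 2-fold lower under the label CD4, where 7.21% of 11572 genes were, and 0 were higher, where 7.01% were. That difference of Naip5 lay in a transcript listed at 0 under the label CD4. The share for all genes was taken over those with at least 1 FPKM in either library, and the fold over FPKM + 1, which understates the change of low genes. Nlrc4 and Aim2 passed that minimum only through the libraries labelled M1 and CD4, so that in these 2 genes a difference from the library labelled M2 could only point down.

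The median log2 ratio of the 9 genes was -1.40 for the library labelled M2 against M1, beside 0.10 over all genes, and ranged from -2.86 for Naip2 to -0.54 for Pycard. Against the library labelled CD4 it was -0.84, beside 0.12 over all genes, and ranged from -2.36 for Aim2 to -0.50. For CD4 against M1 the median was -0.43, beside -0.01, with 7 genes lower and 2, Nlrc4 and Pycard, higher. Of the 7, Casp4 was at -0.14, and at 0.06 with protein-coding transcripts only. The median of the 5 sensors was lower than that of the other 4 genes with a level in each comparison. Single genes of both sets overlapped for M2 against CD4 and for CD4 against M1. For M2 against M1 they did not overlap in the rows compared. They overlapped with all rows summed, where Aim2 was at 1.05 and Pycard at -1.77. With the highest value of each identifier in each column they overlapped too, with Aim2 at -0.12 and Pycard at -1.04. For M2 against M1 the medians were -2.01 and -0.71, and for M2 against CD4 -1.48 and -0.67. For CD4 against M1 they were -0.72 and -0.18. The medians of -1.40 over the 9 genes and -1.48 over the sensors are the ratios of Nlrc4 itself. Against the library labelled M2, Nlrc4 and Aim2 could only point down, and both count in these medians. With all rows summed, the median over 10 members was -0.89 for M2 against M1 and -0.87 for M2 against CD4. Over all genes these were 0.20 and 0.22. The middle 90% of all genes spanned log2 ratios of -2.12 to 2.36 for M2 against M1, so that Aim2 and Naip2 lay below that range and the other 7 within it.

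**Figure D1:**
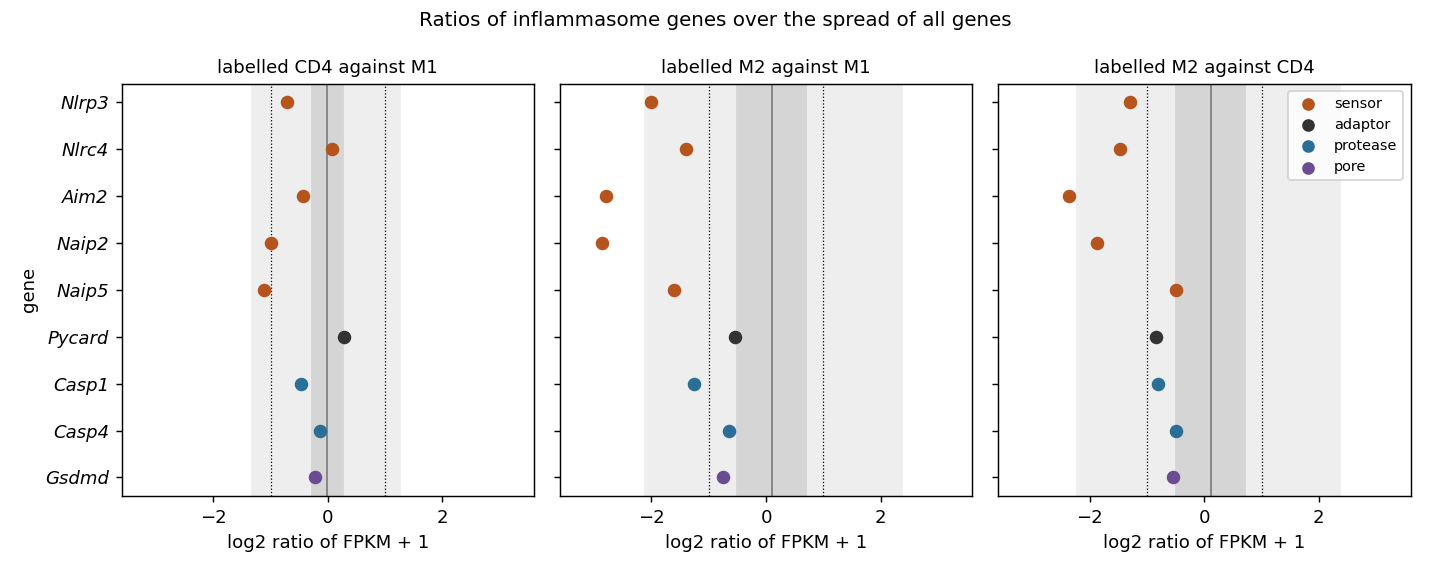
Log2 ratio of FPKM + 1 (x axis) for the 9 inflammasome genes with a level (y axis), with the library labelled CD4 against M1 (left), M2 against M1 (middle) and M2 against CD4 (right), colored by role. Dotted lines mark a 2-fold difference, the grey line is the median of all genes, and the dark and light bands hold the middle 50% and 90% of all genes; all 9 points lie left of the median in the middle and right panels.

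These ratios rest on the first row of each identifier that has a value in all 3 columns. Most of the rows left out carry the same identifiers with a value in 1 or 2 columns and a dash in the others. Later rows with a value in all 3 columns were left out too, such as 1 of Naip2 at 8.49, 1.09 and 5.07 FPKM and 1 of Gsdmd at 0.679, 1.12 and 0.568 FPKM under the labels M1, M2 and CD4. How such rows arose is not described in the sources used here. For 6 of the 10 genes in the library labelled M1, and 5 of 10 in each of the other libraries, the rows left out held over 50% of the summed FPKM, whereas this was so for 17.5%, 21.5% and 17.2% of all genes in the libraries labelled M1, M2 and CD4. Both values are therefore given for each gene. With all rows summed, the library labelled M2 had 4 members at least 2-fold lower and 2 at least 2-fold higher than that labelled M1.

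**Figure D2:**
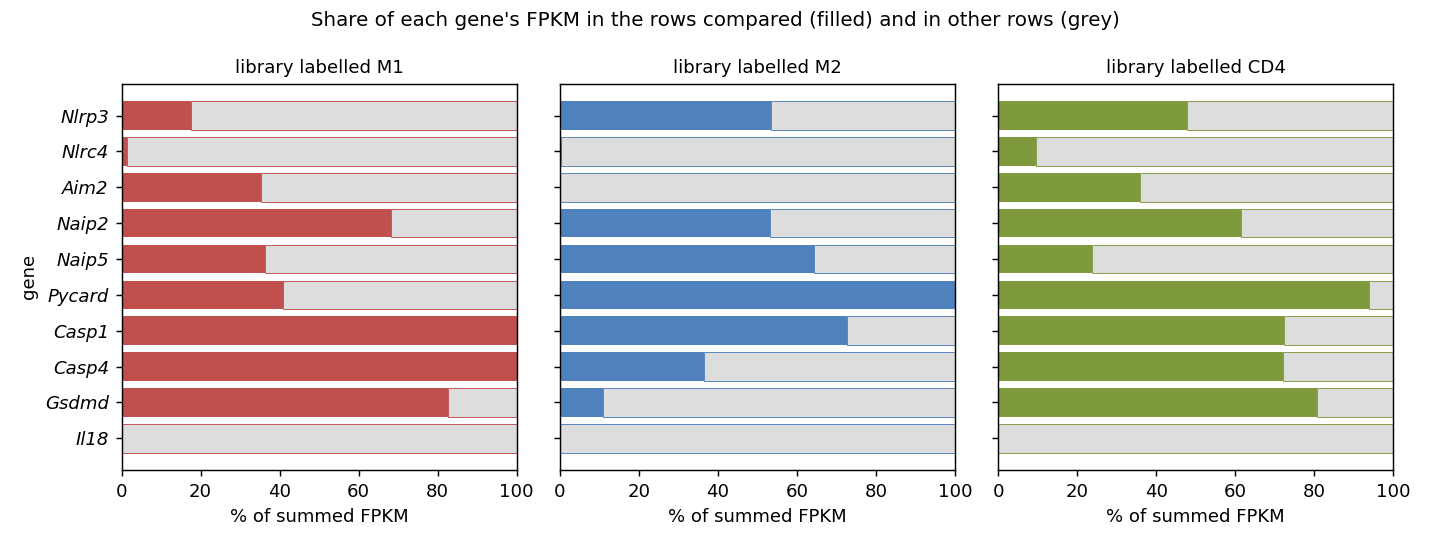
Percent of each gene's summed FPKM (x axis) that lay in the rows compared (filled) and in the rows left out (grey), for the 10 genes (y axis) in each library. The rows compared held little of Nlrc4 in any library, and little of Gsdmd in the library labelled M2, where 89.1% lay in the rows left out.

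Nlrp3, which senses potassium loss and many kinds of cell damage, was at 21.5 FPKM in the library labelled M1, 4.56 in that labelled M2 and 12.6 in that labelled CD4. In the rows compared it was the third most abundant member under the label M1 and the fifth under M2. The level under the label M1 was 4.71-fold that under M2 and 1.70-fold that under CD4. The gene (ENSMUSG00000032691) lies on chromosome 11 from 59355070 to 59380458, on the plus strand of NCBIM37, the mouse build also called mm9. Its level was carried by 2 of 4 listed transcripts that have the same coding sequence of 3102 bases. The transcript ENSMUST00000079476 was at 15.0, 2.72 and 7.27 FPKM in the libraries labelled M1, M2 and CD4, and ENSMUST00000101148 at 6.45, 1.85 and 5.34 FPKM. Both transcripts had the same order of libraries. With all 16 rows summed, the level was 122, 8.53 and 26.4 FPKM, and a single row with a value only under the label M1 held 53.2 FPKM of it. The order of the libraries did not change, and the log2 ratio of M2 to M1 went from -2.01 to -3.69.

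Nlrc4 encodes the sensor that oligomerizes once a NAIP protein has bound bacterial flagellin or a part of a secretion system. In the rows compared it was the lowest member with a value above 0 in the libraries labelled M1 and M2, at 1.95 and 0.118 FPKM, and stood at 2.13 FPKM under the label CD4. The difference between the labels CD4 and M1 was small, with a ratio of 1.09 and a 95% exact binomial interval of 0.964 to 1.23. The level in the library labelled M2 was 0.0602 of that labelled M1, with an interval of 0.0390 to 0.0869, from an estimated 28 and 472 fragments. These intervals rest on fragments estimated from FPKM and cover counting error only. The gene (ENSMUSG00000039193, chromosome 17 from 74825635 to 74858448, minus strand) has 1 annotated transcript with 9 exons, and 14 of its 15 rows were left out. A row with a value only under the label M1 held 129.6 FPKM, another only under M2 held 73.9, and another only under CD4 held 14.7. Summed over all rows the level was 137, 75.3 and 22.3 FPKM, so that the log2 ratio of M2 to CD4 turned from -1.48 to 1.71. Which of the libraries labelled M2 and CD4 had more Nlrc4 RNA therefore depends on the rows taken.

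Aim2, a sensor of double-stranded DNA in the cytosol, was at 5.91 FPKM under the label M1, listed at 0 under M2 and at 4.12 FPKM under CD4. The ratio of CD4 to M1 was 0.697, with an interval of 0.630 to 0.771. No fold is given against a listed 0, which in such a table can be a failed estimate. All of the level was in the transcript ENSMUST00000166137, while ENSMUST00000147604, whose coding sequence of 1065 bases is identical, was listed at 0 in all 3 libraries in its row with 3 values. Other rows of ENSMUST00000147604 held up to 10.1 FPKM under the label M2 alone. With all 22 rows of the gene (ENSMUSG00000037860, chromosome 1 from 175281010 to 175396171, plus strand) summed, the level was 16.7, 35.6 and 11.5 FPKM and was highest under the label M2. The order of the libraries for Aim2 thus depends on the rows taken, and the listed 0 does not show that its RNA was absent.

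Naip2 and Naip5 encode the proteins that bind bacterial ligands for Nlrc4, the inner rod of a secretion system in the case of NAIP2 and flagellin in that of NAIP5. Their genes lie side by side on the minus strand of chromosome 13, Naip2 (ENSMUSG00000078945) from 100914018 to 100972047 and Naip5 (ENSMUSG00000071203) from 100981694 to 101016278. The family grew by duplication, and its members still share stretches longer than a read of 51 bases. The first 120 coding bases of the 4 Naip genes of the reference transcripts of NCBIM37 are shown because they hold both stretches that reads can tell apart and stretches that they cannot. Capitals mark the 43 positions at which the 4 genes are not all the same.
Naip2: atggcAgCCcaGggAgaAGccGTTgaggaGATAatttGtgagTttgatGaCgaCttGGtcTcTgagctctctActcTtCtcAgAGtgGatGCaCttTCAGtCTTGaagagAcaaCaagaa
Naip5: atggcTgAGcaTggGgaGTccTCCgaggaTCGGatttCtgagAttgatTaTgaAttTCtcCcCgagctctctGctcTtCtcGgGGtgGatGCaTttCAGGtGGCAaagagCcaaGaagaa
Naip6: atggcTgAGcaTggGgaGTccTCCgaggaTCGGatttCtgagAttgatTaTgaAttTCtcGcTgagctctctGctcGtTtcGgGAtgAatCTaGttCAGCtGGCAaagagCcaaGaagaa
Naip1: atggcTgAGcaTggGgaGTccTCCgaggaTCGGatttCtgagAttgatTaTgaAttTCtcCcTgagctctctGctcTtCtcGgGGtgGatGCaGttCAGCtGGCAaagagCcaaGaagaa

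In this window Naip5 differed from Naip1 at 3 bases, from Naip6 at 10 and from Naip2 at 36. Its longest run shared with Naip1 was 62 bases, with Naip6 60 and with Naip2 9. Over the whole transcript Naip5-001, 31.6% of the runs of 51 bases were also found in a transcript of another gene, 21.6% in Naip6, 13.4% in Naip1 and 8.56% in Naip2. For Naip2-001 the share was 17.9%. The levels of both genes are therefore uncertain, since reads of the shared stretches could be placed on either copy. For Nlrp3, Nlrc4, Pycard, Casp1, Casp4, Gsdmd and Il18 the share was 0%, and for the Aim2 transcript with a level it was 0.221%. Only transcripts with a coding sequence were searched.

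Naip2 was at 18.1 FPKM under the label M1, 1.63 under M2 and 8.66 under CD4. The level under M1 was 11.1-fold that under M2, and that under CD4 was 5.32-fold that under M2. The levels of Naip5 were 5.72, 1.20 and 2.12 FPKM in these libraries, 4.77-fold higher under M1 than under M2 and 2.70-fold higher than under CD4. Naip2 was thus above Naip5 in each library, by 3.17-fold under the label M1, 1.36-fold under M2 and 4.09-fold under CD4. The 7 rows of Naip2 summed to 26.6, 3.06 and 14.1 FPKM and the 4 rows of Naip5 to 15.8, 1.86 and 8.94 FPKM, with the libraries in the same order. A row of Naip5-001 with 10 FPKM under M1, 6.83 under CD4 and a dash under M2 was among those left out. With it the log2 ratio of CD4 to M1 went from -1.11 to -0.75, and Naip5 was no longer past 2-fold in that comparison. Naip1 and Naip6, which share these stretches and were outside the members, were at 1.62, 0.133 and 0.789 FPKM and at 6.44, 0.718 and 4.46 FPKM in the libraries labelled M1, M2 and CD4. With all rows summed, Naip1 was at 1.62, 0.624 and 0.789 FPKM and Naip6 at 67.4, 0.718 and 51.2 FPKM.

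Pycard encodes ASC, the adaptor that joins the sensors to caspase-1. It was at 13.4 FPKM in the library labelled M1, 8.85 in that labelled M2 and 16.6 in that labelled CD4, where it was the third most abundant member in the rows compared. The ratio of M2 to M1 was 0.662, with an interval of 0.605 to 0.726. The ratio of CD4 to M1 was 1.24, with an interval of 1.15 to 1.34, the opposite direction to the other members with a level except Nlrc4. The gene (ENSMUSG00000030793, chromosome 7 from 135135617 to 135137381, minus strand) has 1 transcript with 3 exons and a coding sequence of 582 bases. A row with a value only under the label M1 held another 19.3 FPKM. With it, the summed level was 32.7, 8.85 and 17.7 FPKM, Pycard was highest under the label M1, and the log2 ratio of CD4 to M1 turned from 0.29 to -0.85.

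Casp1, which encodes the protease that matures interleukin-1 beta and interleukin-18, was the second most abundant member in all 3 libraries in the rows compared, though not with all rows summed under the labels M1 and M2. Its levels were 29.2, 11.6 and 21.0 FPKM under the labels M1, M2 and CD4. The ratio of M2 to M1 was 0.398, with an interval of 0.371 to 0.427, and that of M2 to CD4 was 0.553, with an interval of 0.514 to 0.594. No value was left out under the label M1, and with the other rows the levels were 29.2, 16.0 and 29.1 FPKM, which put the libraries labelled M1 and CD4 at nearly the same level.

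Casp4 encodes the mouse protease often called caspase-11, which binds bacterial lipopolysaccharide directly and cuts gasdermin D without a sensor. It was at 11.4 FPKM under the label M1, 6.93 under M2 and 10.2 under CD4. The order was that of Casp1, but the libraries lay closer together, with a log2 ratio of M2 to M1 of -0.65 beside -1.26 for Casp1. Under the label M1 the level included 1.68 FPKM of Casp4-002, annotated as a retained intron and listed at 0 under M2 and CD4. The protein-coding Casp4-001 alone was at 9.76, 6.93 and 10.2 FPKM, so that the order of M1 and CD4 depends on Casp4-002. Casp1 was above Casp4 by 2.56-fold, 1.68-fold and 2.05-fold in the libraries labelled M1, M2 and CD4. The rows left out of Casp4 held 12.0 FPKM under the label M2 and 0 under M1. With them the level was 11.4, 19.0 and 14.2 FPKM, and the library labelled M2 was the highest.

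The 2 protease genes are neighbours on the plus strand of chromosome 9, Casp1 (ENSMUSG00000025888) from 5298517 to 5307265 and Casp4 (ENSMUSG00000033538) from 5308828 to 5336783. The 63 coding bases around the active site are shown because they are the part the proteins have in common, with the codon of the catalytic cysteine in capitals. It is codon 284 of Casp1 and codon 254 of Casp4 in the reference transcripts of NCBIM37.
Casp1: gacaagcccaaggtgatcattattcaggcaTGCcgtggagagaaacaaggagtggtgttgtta
Casp4: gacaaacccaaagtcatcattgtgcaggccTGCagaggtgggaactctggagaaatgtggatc

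Of these 63 bases 43 were identical, or 68.3%. The transcripts of the neighbours that have a coding sequence shared no run of 51 bases, and the others were not searched.

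Gsdmd encodes gasdermin D, the protein whose fragment forms the pore, and was the most abundant member in all 3 libraries in the rows compared, while with all rows summed Nlrc4 and Nlrp3 lay above it under the label M1. It was at 41.3 FPKM in the library labelled M1, 23.9 in that labelled M2 and 35.3 in that labelled CD4, above 91.8%, 86.6% and 90.7% of the genes with a level above 0. The ratio of M2 to M1 was 0.579, with an interval of 0.552 to 0.607. Gsdmd was 1.41-fold, 2.06-fold and 1.68-fold above Casp1 in the libraries labelled M1, M2 and CD4. The gene (ENSMUSG00000022575, chromosome 15 from 75692769 to 75697834, plus strand) has 1 transcript with 11 exons. A row with a value only under the label M2 held 180.4 FPKM, and with all 7 rows the level was 50.1, 219 and 43.8 FPKM. The log2 ratio of M2 to M1 then turned from -0.76 to 2.11, and the library labelled M2 was the highest.

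Il18 encodes the cytokine that caspase-1 matures and that acts on T cells and NK cells. None of its 6 rows had a value in all 3 columns. A row with values in 2 columns was at 5.0 FPKM under the label M1 and at 7.20 FPKM under CD4, a ratio of CD4 to M1 of 1.44. The library labelled M2 had values only in 5 other rows, at 0.871, 0, 0.533, 0.322 and 0.418 FPKM, which sum to 2.14 FPKM. On these sums the level under M2 was 0.429 of that under M1 and 0.298 of that under CD4, values from separate rows that the rule does not compare. The gene (ENSMUSG00000039217) lies on chromosome 9 from 50383378 to 50389942, on the plus strand, with 5 exons and a coding sequence of 579 bases.

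**Figure D3:**
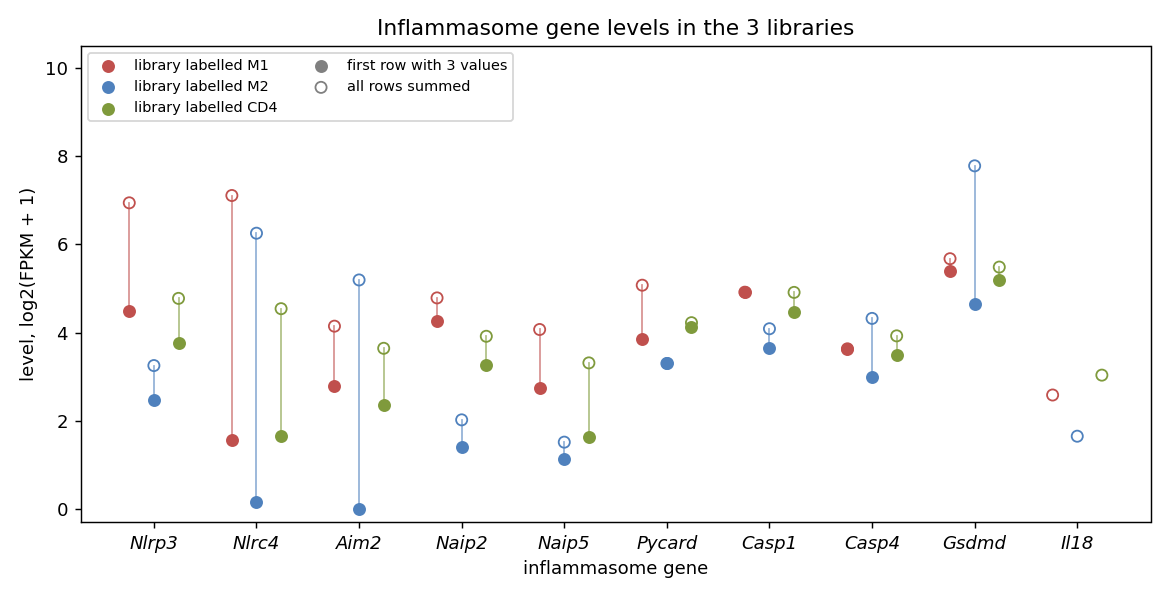
Level of the 10 inflammasome genes (x axis) as log2(FPKM + 1) (y axis) in the libraries labelled M1 (red), M2 (blue) and CD4 (green), with filled points for the rows that have a value in all 3 columns and open points for all rows summed. The filled blue point is the lowest of each gene, while the open blue point is the highest for Aim2, Casp4 and Gsdmd.

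The order of the members by level is given for the rows compared, and it differs with all rows summed, where Nlrc4 at 137 and Nlrp3 at 122 FPKM came first under the label M1. In the rows compared Gsdmd and Casp1 came first and second in each library. Under the label M1 they were followed by Nlrp3, Naip2 and Pycard, under M2 by Pycard, Casp4 and Nlrp3, and under CD4 by Pycard, Nlrp3 and Casp4. Pycard was at 0.622 of the level of Nlrp3 under the label M1, but at 1.94 times its level under M2 and 1.32 times under CD4. Casp1 was at 1.36, 2.55 and 1.67 times the level of Nlrp3 in the libraries labelled M1, M2 and CD4. Neighbours in this order can be close: under the label M1 Aim2 and Naip5 were at 5.91 and 5.72 FPKM, and under CD4 Nlrc4 and Naip5 were at 2.13 and 2.12 FPKM. The spread between replicates that would be needed to separate them was not measured.

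Promoter sequence was examined because the sensors were lower together in the library labelled M2 in the rows compared. For Aim2 and Nlrc4 this order depends on the rows taken. RefSeq held a promoter for 9 of the 10 genes on build GRCm38.p6, all but Gsdmd. The 250 bases before each start were searched on both strands for the core of the ETS factors (GGAAGT), the core of the myeloid factor PU.1 (GAGGAA) and the paired core of the interferon response element (GAAA, any 2 letters and GAAA again), motifs that were chosen after the sequences were seen. Both cores hold the letters GGAA, so 1 site can carry both. A gene counted if any of its promoters held the letters. The ETS core was found for 6 of the 9 genes (Nlrc4, Aim2, Naip2, Naip5, Pycard and Casp4) and for 22.2% of 27025 genes with a promoter. Naip2 and Naip5 belong to a duplicated family and share the bases that lead up to the match, so these 2 are not separate finds. The PU.1 core was found for 4 genes (Nlrp3, Aim2, Pycard and Casp1) and for 25.9% of all genes with a promoter. The paired interferon core was found for 0 of the 9 and for 3.46% of all. The 150 bases before the start of the 3 genes of the NAIP and NLRC4 sensor are shown because each holds the ETS core close to its start, in capitals as ACTTCC, its reverse complement.
Naip2, chr13:100202123-100202272, minus strand: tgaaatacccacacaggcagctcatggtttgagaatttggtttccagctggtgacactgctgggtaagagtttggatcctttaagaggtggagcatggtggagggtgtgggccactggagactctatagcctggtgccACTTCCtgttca
Naip5, chr13:100247337-100247486, minus strand: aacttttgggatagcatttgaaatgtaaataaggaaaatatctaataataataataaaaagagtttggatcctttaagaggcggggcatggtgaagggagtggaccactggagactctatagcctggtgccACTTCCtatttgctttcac
Nlrc4, chr17:74459109-74459258, minus strand: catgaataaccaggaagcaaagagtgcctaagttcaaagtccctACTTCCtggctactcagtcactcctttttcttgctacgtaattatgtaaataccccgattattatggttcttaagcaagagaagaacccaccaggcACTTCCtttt

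The match began 12 bases before the start in Naip2, 19 in Naip5 and 106 and 10 in Nlrc4. A match is a stretch of letters and was not measured as a binding site.

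Other genes of inflammasome signalling, a list of 45 without the members, were examined by role. Of the 37 with at least 1 FPKM, 15 were past 2-fold lower under the label M2 than under M1 and 5 were higher, or 40.5% and 13.5%, beside 14.5% and 16.9% of all genes. Against the library labelled CD4, 12 of 35 were lower and 9 higher, or 34.3% and 25.7%, beside 15.3% and 17.3% of all genes. Between the libraries labelled CD4 and M1, 7 of 35 were lower under CD4 and 2 higher, or 20.0% and 5.71%, beside 7.21% and 7.01% of all genes. Each comparison counts genes under 1 FPKM in a library, which passed the minimum through the other library and could point only that way. For M2 against M1 these were Nlrp1b, Mefv, Naip1 and Naip6 among the lower and Il18r1 among the higher. No conclusion about the list is therefore drawn from these shares. Regulators lay on both sides, with 5 of 17 lower and 4 higher for M2 against M1, while 1 of 4 caspases and 3 of 10 cytokine and receptor genes were lower.

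The 5 other sensors with at least 1 FPKM were all at least 2-fold lower in the library labelled M2 than in that labelled M1, as were 14.5% of all genes. Of these sensors Nlrp1b, Mefv, Naip1 and Naip6 were under 1 FPKM in the library labelled M2, so they passed the minimum through the other library and could only point down, and the count supports nothing about the list. Nlrp1b, a sensor of bacterial toxins and of lost peptidase activity, was at 11.4 FPKM under the label M1, 0.316 under M2 and 8.27 under CD4. Nlrx1, a mitochondrial member of the sensor family, was at 11.3, 2.15 and 5.01 FPKM. Mefv, which encodes the sensor pyrin, and the genes Naip1 and Naip6 were the other 3, named after their values were seen. Mefv was at 6.42 FPKM under the label M1 and at 0.199 and 0.220 FPKM under M2 and CD4, and with all rows summed at 12.7, 0.607 and 1.54 FPKM under M1, M2 and CD4.

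Il1b and Il1rn had larger log2 ratios of M2 to M1 than any member in the rows compared. Il1b, the main cytokine matured by caspase-1, was at 229.8 FPKM under the label M1, 20.2 under M2 and 92.3 under CD4, with log2 ratios of -3.45 for M2 against M1 and -1.31 for CD4 against M1. Il1rn, the antagonist of the interleukin-1 receptor, was at 109.8, 6.50 and 46.2 FPKM, so cytokine and antagonist had the same order of libraries. Il1r2, the decoy receptor, was at 10.3 FPKM under M1 and 0.974 under CD4, and Il1a was higher under CD4 than under M1, at 11.8 and 3.81 FPKM. Il18r1, the receptor chain for interleukin-18 on T cells and NK cells, had the opposite pattern to the members, at 0.547, 15.3 and 0.654 FPKM under the labels M1, M2 and CD4. Like the T cell list, it was highest under the label M2.

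Genes that prime or regulate the pathway differed in both directions. Tlr4, the receptor for lipopolysaccharide, was at 21.3 FPKM under the label M1, 3.37 under M2 and 11.6 under CD4, and Card9, a signalling adaptor of myeloid cells, was at 35.2 FPKM under M1 and 10.1 under M2. Irf1, a transcription factor induced by interferon, was highest under the label M2, at 77.9 FPKM beside 22.4 under M1 and 27.4 under CD4. Nek7, a kinase that NLRP3 needs for its activation, differed little, at 26.2, 32.8 and 31.4 FPKM. P2rx7, the ATP-gated channel upstream of NLRP3, was at 16.6, 4.43 and 38.2 FPKM, but its log2 ratio of M2 to CD4 went from -2.85 to 0.01 with all rows summed. Ninj1, which carries out membrane rupture after the pore has formed, was at 14.5 FPKM under M2 and 81.2 under CD4. Casp8, a protease that can join ASC complexes, was at 37.4, 12.2 and 32.6 FPKM, and its log2 ratio of M2 to M1 went from -1.54 to -0.48 with all rows summed.

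**Figure D4:**
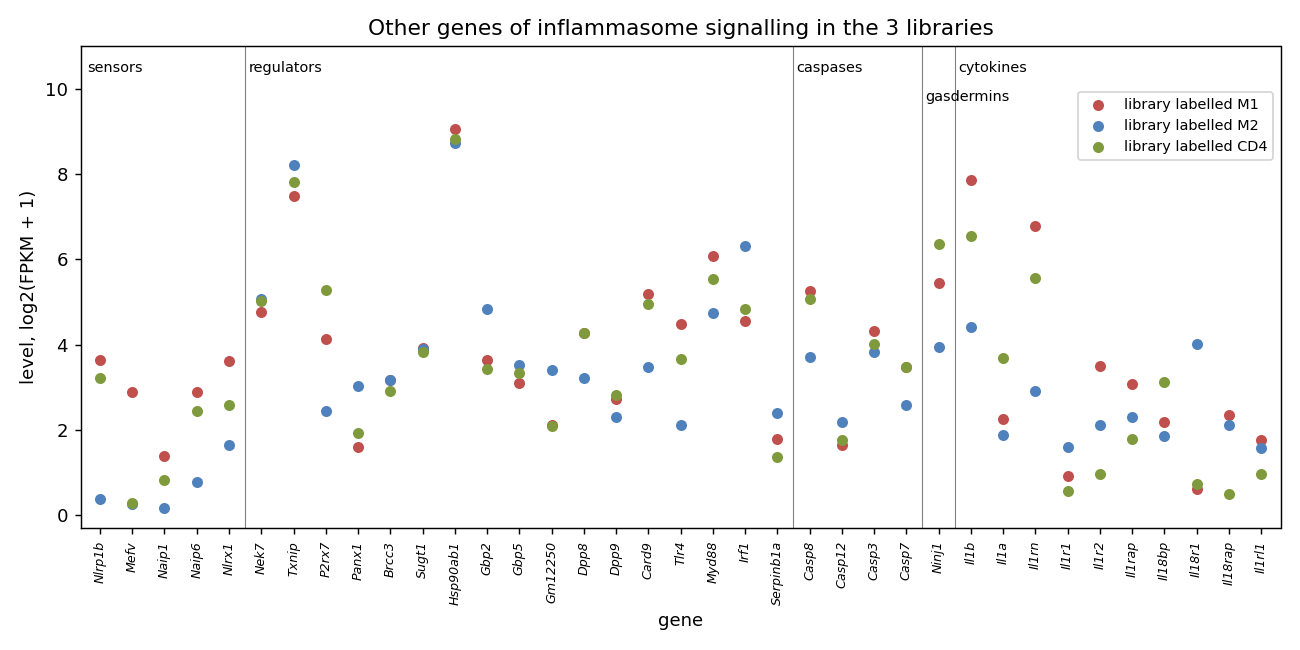
Level as log2(FPKM + 1) (y axis) of the 37 other inflammasome signalling genes with at least 1 FPKM in a library (x axis, by role) in the libraries labelled M1 (red), M2 (blue) and CD4 (green). The blue points of the 5 sensors lie below the red ones, and those of Il18r1 and Irf1 lie above both other libraries.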

How the data were processed

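RNA of sorted cells was sequenced as paired reads of 51 bases, 1 library per group. The authors trimmed the reads and aligned them to mm9 with TopHat and Bowtie. They used Cufflinks, guided by the Ensembl annotation, to assemble transcripts and estimate their levels, and deposited these in 1 table as FPKM. How the rows of the libraries were joined is not given in the sources used here. Fragments are shared between overlapping variants by a model, and a dash stands in 23458 to 28490 of 135070 rows per column. Columns were assigned by their headings. Of 92519 identifiers 97.6% were found in the GENCODE vM1 annotation of NCBIM37.

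Ratios were taken on log2(FPKM + 1) over genes with at least 1 FPKM in either library and called at 2-fold. The depth was taken from the commonest low product of FPKM and length, and came to 62900000, 62900000 and 74800000 fragments for the libraries labelled M1, M2 and CD4. Intervals are 95% exact binomial intervals on the fragments so estimated, for members whose level 1 identifier carries. The members and the gene lists were chosen with earlier results of these data known. All members were named. The value of 1 of the marker genes, which counts in its list sum, is not reported here. Of the list of 45 signalling genes, those past 2-fold with at least 10 FPKM in a library were named, at most 8 per comparison, with Il1b, Nek7 and Casp8 in any case. The calculations were tested on simulated data with Python 3.11.15, numpy 2.4.6, pandas 2.3.3 and scipy 1.17.1, and plots were drawn with matplotlib 3.10.9. Coding sequences came from the GENCODE vM1 transcripts and promoters from RefSeq on GRCm38.p6. The flow cytometry and protein data of the study were not used here.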

Additional observations from a re-analysis of the deposited data

Results flagged for a closer look

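Levels in rows outside the comparison were set beside the level of 3 fragments, which ranged from 0.00771 to 0.0679 FPKM for these rows. No control library was available for them. The sums below lay above it and above any level of the gene in the rows compared. Sums above it but below the level compared are not listed, such as 8.49 FPKM of Naip2 under the label M1. Nlrp3 had 100.3 FPKM in such rows under the label M1 and 13.7 under CD4. Nlrc4 had 135 FPKM under the label M1, 75.2 under M2 and 20.2 under CD4. Aim2 had 10.8 FPKM under M1, 35.6 under M2 and 7.36 under CD4. Naip5 had 10 FPKM under M1 and 6.83 under CD4. Pycard had 19.3 FPKM under M1, while Casp4 had 12.0 and Gsdmd 195 under M2. Il18, which had no row to compare, had 5.0 FPKM under M1, 2.14 under M2 and 7.20 under CD4.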

How the results depend on the processing

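M1, M2 and CD4 stand here for the libraries so labelled. With 1 library per group no replicate could be left out. No paired analysis was possible because each group had 1 library. Of the counts and medians over the members 82 values under the alternatives stayed close to the reported one and 20 moved. Of the ratios of single members 200 stayed, 30 moved and 5 turned. A ratio counted as turned only if its reported log2 ratio was at least 1 in size. Smaller ratios that changed sign counted as moved or stayed, such as Gsdmd for M2 against M1, which moved from -0.76 to 2.11. Without a filter, with a minimum of 10 FPKM or without Aim2, the ratio of a kept member cannot change. Such ratios are among the 200 by construction and say nothing about how firm the ratios are. With all rows summed, 2 members were lower in CD4 than in M1, 2 were higher in M2 than in M1 and 3 higher in M2 than in CD4, while the log2 ratio of Aim2 became 1.05 for M2 against M1 and 1.55 for M2 against CD4 and that of Nlrc4 1.71 for M2 against CD4. With the highest value of each identifier in each column, a choice made after seeing the data, 2 members were lower in CD4 than in M1, 1 was higher in M2 than in M1 and 2 higher in M2 than in CD4, with Nlrc4 at 2.25 and Aim2 at 0.18 for M2 against CD4. A pseudocount of 0.1 gave 2 members lower in CD4 than in M1 and a median of -2.16 for M2 against M1. A minimum of 10 FPKM, which left 6, 6 and 5 members, gave 0 lower in CD4 than in M1, 3 lower in M2 than in M1 and 1 lower in M2 than in CD4. Scaling each column to a total of 1000000, which left 2, 2 and 1 members above the minimum, gave 0 lower in each comparison and medians of -0.42 for M2 against M1 and -0.15 for M2 against CD4. At 1.5-fold 3 members were lower in CD4 than in M1, and at 4-fold 0 were, with 3 lower in M2 than in M1 and 1 in M2 than in CD4. The fewer members left and the other thresholds make these last counts by construction, and for the changes with other rows the cause was not tested. Without Aim2, also chosen after seeing the data, 5 members were lower in M2 than in M1 and 3 in M2 than in CD4. Depth limits the low values most, with an estimated 28 fragments of Nlrc4 under the label M2.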
